A study of Mus musculus with 6 samples.

Results

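The 10 genes described here encode the Reg lectins and other antimicrobial or barrier proteins that the gut epithelium releases. They were chosen by name (Reg1, Reg3a, Reg3b, Reg3d, Reg3g, Retnlb, Pglyrp1, Pla2g2a, Dmbt1 and Pigr), 10 of the 46078 genes in the count table, and all 10 were among the 14923 genes that had enough counts to test. RNA was sequenced from EpCam+ CD45- cells sorted from the small intestine, its proximal part by the series' design, of 3 young and 3 aged mice. The young animals had an age of 2 to 3 months and the aged ones of 20 to 22 months. All 6 mice were untreated C57BL/6JRj animals, an inbred C57BL/6 strain, and there were 3 libraries per age. No label ties a library to a named animal, so the spread between libraries is taken as the spread between mice. The sort takes all epithelial cell types together. The numbers of the replicates follow the order of the records and pair no young with any aged library.

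The small intestine keeps bacteria away from its surface by secreting proteins into the lumen and the mucus. Reg3 lectins bind or permeabilise bacteria near the epithelium, and their genes are switched on by bacterial signals through MyD88 and by the cytokine IL-22 through STAT3. Retnlb is a resistin-like protein of goblet cells driven by IL-4 and IL-13, and Pigr is the receptor that carries dimeric IgA from the tissue into the lumen. Paneth cells, goblet cells and enterocytes each make some of these products.

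The libraries held 41479573 to 58989166 counts. Epcam, the surface marker of the sort, lay between 1502 and 1669 CPM (counts per library total, with the total scaled by TMM factors) in the 6 libraries, and Ptprc, which encodes CD45, between 0.168 and 0.287 CPM. Of 14923 genes tested, 210 (1.41%) passed an adjusted p of 0.05 in edgeR's quasi-likelihood test of aged against young, 93 higher (0.623%) and 117 lower (0.784%).

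None of the 10 genes passed that test in either direction. At an unadjusted p below 0.05, 1 was higher (Reg3g, beside 3.9% of all genes tested) and 1 lower (Reg1, beside 5.33%). DESeq2 called 1 of them lower, Reg1, and limma-voom called none. In both Reg3b and Reg3g, 2 of 3 aged mice stood well above every young mouse and the third did not. Reg1 was lower in all 3 aged mice than in any young mouse. Pigr and Dmbt1, the most abundant of the 10, differed little between the ages. The groups did not overlap in 1 gene that was higher (Reg3g, beside 6.3% of all genes tested) and in 1 that was lower (Reg1, beside 7.49%). The median log2 fold change was 0.10 over the 10 genes and 0.01 over all genes tested.

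**Figure D1:**
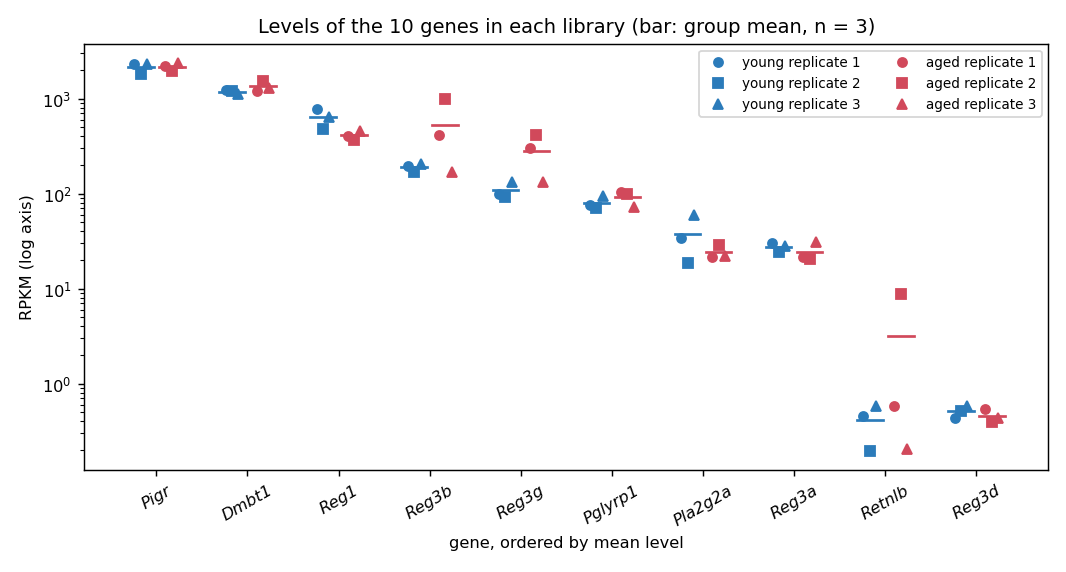
Level of each of the 10 genes in each of the 6 libraries, in RPKM on a log axis, with the genes ordered by their mean over all libraries. Points are libraries (young blue, aged red, the shape gives the replicate) and short bars are the means of 3; Pigr and Dmbt1 lie highest, and the aged points of Reg3b, Reg3g and Retnlb spread most widely.

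Levels of different genes were compared per length, as RPKM (CPM per kilobase of merged exons). In young mice the order of the means was Pigr (2149 ± 285 RPKM, SD, n = 3), Dmbt1 (1185 ± 47.7 RPKM), Reg1 (637 ± 156 RPKM), Reg3b (191 ± 19.3 RPKM), Reg3g (108 ± 20.6 RPKM), Pglyrp1 (80.1 ± 13.5 RPKM), Pla2g2a (37.5 ± 20.8 RPKM) and Reg3a (27.3 ± 2.94 RPKM). Reg3d (0.513 ± 0.0736 RPKM) and Retnlb (0.413 ± 0.20 RPKM) came last. The young libraries of Pla2g2a and Reg3a overlapped in RPKM, as did those of Reg3d and Retnlb, so the order within these pairs was not resolved. The ranges of Reg3g and Pglyrp1 overlapped too, but Reg3g was the higher in each young library. It stood at 100, 92.5 and 131 RPKM there, against 75.2, 69.8 and 95.3 RPKM for Pglyrp1. The order of Reg3b and Reg3g depends on the length used. Merged exons of Reg3g span 2114 bases because the annotation holds a transcript with a retained intron, against 1142 for Reg3b. Per kilobase of the longest coding transcript (771 and 783 bases), a length chosen after the data were seen, Reg3g stood at 296 and Reg3b at 278 in young mice. Pglyrp1 stood at 212 on that scale. Young replicate 1 had more CPM of Reg3b (226) than of Reg3g (212), so the order of Reg3g above Reg3b did not hold in each young library. Pigr and Dmbt1 alone took between 1.58 and 1.88% of all counts in each library, and the 10 genes together between 1.68 and 2.14%.

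The 6 Reg genes of this locus lie within 98.2 kb of chromosome 6 (78370657 to 78468872, GRCm38), and 5 of them are among the 10 genes. In order along the chromosome they are Reg3b (forward strand), Reg3d (reverse), Reg3a (forward), Reg2 (forward), Reg1 (forward) and Reg3g (reverse), with no other annotated gene between. Neighbours in this row differed widely in level. Reg3d lies 5.22 kb from the start of Reg3b, yet it held 111 counts over all 6 libraries where Reg3b held 116006. Reg2, which is no member of the group and is known from the pancreas, held 19 counts in all.

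**Figure D2:**
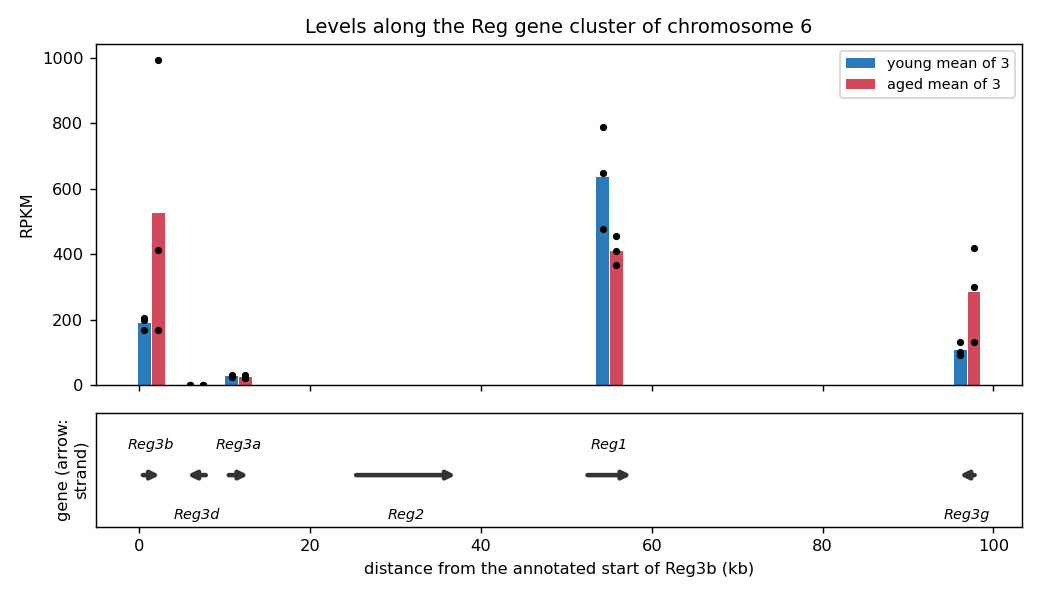
The Reg cluster of chromosome 6, with the distance from the annotated start of Reg3b in kb on the horizontal axis. Upper panel, mean RPKM of 3 young (blue) and 3 aged (red) mice with each library of the 5 Reg members as a dot; lower panel, position and strand of the 6 genes. The aged dots of Reg3b and Reg3g, at opposite ends, reach far above the young ones, while those of Reg1 between them lie below.

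The start regions of Reg3b, Reg3g and Reg1 are shown because these 3 genes carry the widest differences among the Reg members. Each window runs from 250 bases before to 50 bases after the RefSeq start site (GRCm38.p6), 5′ to 3′ on the gene's strand, with matches in capitals to TATAAA, TTCNNNGAA (the palindrome bound by STAT factors) or GAAA, any 2 bases and GAAA (an interferon regulatory factor motif), searched on both strands. The windows lie at chr6:78370635-78370934 (forward strand), chr6:78468825-78469124 (reverse) and chr6:78425733-78426032 (forward).
Reg3b: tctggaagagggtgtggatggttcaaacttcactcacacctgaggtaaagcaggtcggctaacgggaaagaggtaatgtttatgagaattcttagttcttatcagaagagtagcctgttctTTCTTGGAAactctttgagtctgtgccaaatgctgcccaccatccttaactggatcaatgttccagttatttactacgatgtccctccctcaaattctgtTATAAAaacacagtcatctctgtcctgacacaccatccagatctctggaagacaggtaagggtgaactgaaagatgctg
Reg3g: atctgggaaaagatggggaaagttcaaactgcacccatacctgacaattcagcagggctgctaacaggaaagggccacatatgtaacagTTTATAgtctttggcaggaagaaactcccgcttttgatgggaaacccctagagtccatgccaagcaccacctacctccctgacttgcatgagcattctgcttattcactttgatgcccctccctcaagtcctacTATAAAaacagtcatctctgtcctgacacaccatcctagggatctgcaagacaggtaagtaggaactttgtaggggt
Reg1: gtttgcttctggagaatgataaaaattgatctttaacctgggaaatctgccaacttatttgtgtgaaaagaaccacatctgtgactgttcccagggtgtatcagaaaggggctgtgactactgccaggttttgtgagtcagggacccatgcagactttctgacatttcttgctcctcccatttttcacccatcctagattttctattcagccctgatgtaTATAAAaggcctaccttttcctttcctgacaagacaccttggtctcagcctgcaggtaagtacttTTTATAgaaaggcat
TATAAA lay 29, 27 and 30 bases before the start in Reg3b, Reg3g and Reg1, and Reg3g and Reg1 each held another match on the opposite strand. Over all 32851 promoter windows of 300 bases, 13.6% held TATAAA on either strand. TTCNNNGAA matched once in Reg3b, 129 bases before the start, and in 8.30% of all windows. The interferon regulatory factor motif matched in none of the 3 and in 3.44% of all windows. Of the other members with a window, Reg3d and Pigr held TTCNNNGAA. A match or its absence describes these letters only. RefSeq windows were matched for 7 of the 10 genes.

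Reg3b and Reg3g, at the 2 ends of the cluster, share the longest run of identical bases of any pair of the 6 Reg windows. It spans 29 bases at the same place in both, from position 231 of the window, and reads acagtcatctctgtcctgacacaccatcc, across the start site. The longest run in any other pair was 14 bases (Reg3a and Reg3g). The whole windows of Reg3b and Reg3g were 69.9% identical over 296 aligned bases, less than the 73.9% of Reg3a and Reg3g. Their transcripts were 74.4% identical. No stretch of 50 bases in the longest coding transcript of Reg3a, Reg3b, Reg3d or Reg3g occurred in an annotated transcript of another gene. In Reg1 32 of 855 such stretches (3.74%) did, none of them in Reg2.

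Reg3b (ENSMUSG00000071356, chromosome 6, 78370657 to 78373466, forward strand), also known as a pancreatitis-associated protein, is a lectin that acts mainly on Gram-negative bacteria. It stood at 226, 193 and 235 CPM in the young mice (replicates 1 to 3) and at 471, 1134 and 194 CPM in the aged mice. Aged replicates 1 and 2 lay above every young library and aged replicate 3 lay within the young range. Aged over young, this was a log2 fold change of 1.46 ± 0.63 (SE, 95% interval -0.12 to 3.05, edgeR adjusted p = 0.607). Without aged replicate 2 it was 0.61, and without aged replicate 3 it was 1.88.

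Reg3g (ENSMUSG00000030017, chromosome 6, 78466269 to 78468872, reverse strand), a lectin that kills Gram-positive bacteria, had the same order among the aged mice. Its young libraries held 212, 196 and 278 CPM and its aged libraries 632, 887 and 282 CPM. The groups did not overlap, but aged replicate 3 exceeded young replicate 3 by a small margin only. Its log2 fold change was 1.39 ± 0.42 (SE, 95% interval 0.36 to 2.43, edgeR unadjusted p = 0.0165 and adjusted p = 0.314). Without aged replicate 3, Reg3g passed the threshold at a log2 fold change of 1.73 (adjusted p = 0.00739). In the other 13 alternatives it did not, with log2 fold changes down to 0.996 without aged replicate 2.

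The ratio of Reg3b to Reg3g in CPM was 1.07, 0.986 and 0.844 in young mice and 0.746, 1.3 and 0.687 in aged mice, so the age groups overlapped. Reg3b exceeded Reg3g in young replicate 1 and aged replicate 2.

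Reg1 (ENSMUSG00000059654, chromosome 6, 78422711 to 78428667, forward strand), a lectin first described as a growth factor of regenerating pancreatic islets, took the other direction. It stood at 713, 430 and 585 CPM in young and at 370, 332 and 412 CPM in aged mice. All 3 aged libraries lay below the lowest young one. For Reg1 the log2 fold change was -0.63 ± 0.17 (SE, 95% interval -1.02 to -0.25, edgeR unadjusted p = 0.00524 and adjusted p = 0.161). Reg1 passed the threshold in DESeq2 (log2 fold change -0.63, adjusted p = 0.00592) and without young replicate 2, the lowest young library (-0.81, adjusted p = 0.0160). In the other 12 alternatives it did not, and without young replicate 1, the highest, it was -0.45.

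The share of Reg3b and Reg3g in the 5 Reg members was higher in every aged library than in any young one. It is given here as a description without a test, and it restates the values above, as its sum holds Reg1 too. In aged replicate 3, Reg3b (194 CPM) lay within the young range, Reg3g (282 CPM) just above it and Reg1 (412 CPM) below it. Reg3b and Reg3g together made up 37.2, 46.3 and 45.7% of the summed CPM of the 5 Reg members in young mice and 74.0, 85.3 and 52.1% in aged mice. The sum of the 5 genes itself overlapped between the ages, with 1175, 839 and 1121 CPM in young and 1491, 2371 and 913 CPM in aged mice. Reg4, which is no member of the group, is not counted in the share or the sum. It held 299 to 421 CPM in young and 275 to 353 CPM in aged mice.

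The remaining Reg members were lower in level. Reg3a is annotated as ENSMUSG00000079516, chromosome 6, 78380709 to 78383827, forward strand, and Reg3d as ENSMUSG00000068341, chromosome 6, 78375874 to 78378865, reverse strand. Reg3a, another C-type lectin of the family, held 24.7, 19.9 and 23.1 CPM in young and 17.6, 17.1 and 25.6 CPM in aged mice. The groups overlapped, with aged replicate 3 the highest of the 6 (log2 fold change -0.16 ± 0.16, SE, edgeR adjusted p = 0.866). Leaving out 1 library moved the value between -0.39 (aged replicate 3 left out) and -0.066 (aged replicate 2). Aged replicate 3, the lowest aged library of Reg3b and Reg3g, was thus the highest of Reg3a. Aged replicates 1 and 2 of Reg3a lay close together (831 and 778 counts). Reg3d, a further member of the family, held 15, 24 and 19 counts in young and 20, 14 and 19 counts in aged libraries, or 0.307 to 0.456 CPM. The exact Poisson 95% intervals of all 6 libraries overlapped. For Reg3d the log2 fold change of -0.17 had a 95% interval of -0.87 to 0.53 and lay between -0.31 (aged replicate 1 left out) and -0.078 (young replicate 3), and smaller differences could not be resolved at this depth.

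**Figure D3:**
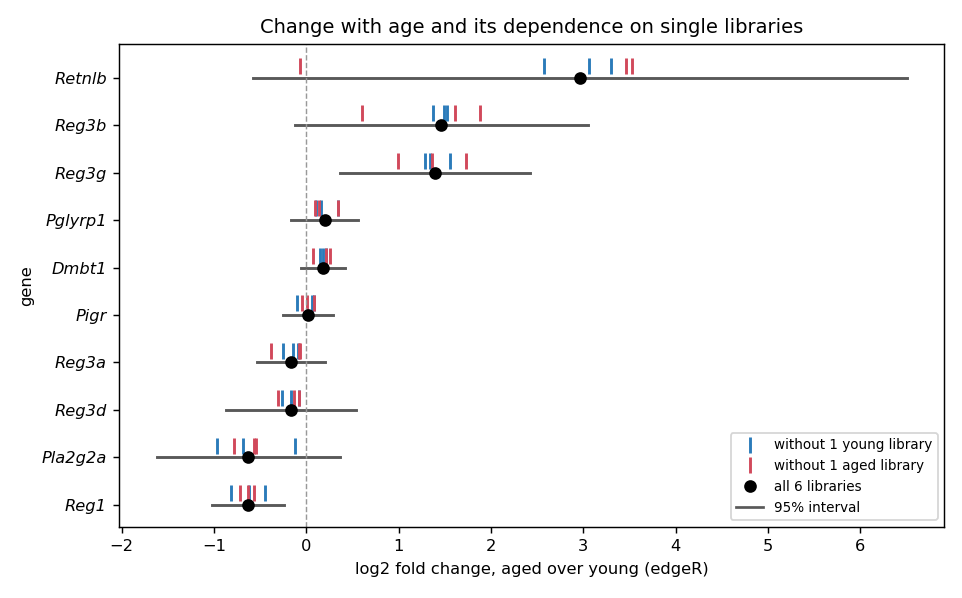
Log2 fold change of aged over young for each of the 10 genes from edgeR, with dots for all 6 libraries, grey lines for 95% intervals, and ticks for the fits without 1 young (blue) or 1 aged (red) library. The intervals of Reg3g and Reg1 leave out 0, and the ticks of Retnlb run from -0.069 to 3.53.

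The summed markers of Paneth and goblet cells were lower in every aged library than in any young one, and those of enterocytes overlapped. The 12 Paneth cell markers in the table summed to 8724 to 16062 CPM in young and 6503 to 7068 CPM in aged mice. Of these 12, 2 fell (Defa17 and Defa26) and 10 did not pass the test. All 12 had a log2 fold change below 0, and 6 were lower at an unadjusted p below 0.05. Over all genes tested, 5.33% were lower and 3.9% higher at that threshold, and 7188 of 14923 had a log2 fold change below 0. At the adjusted threshold 0.784% were lower and 0.623% higher. The 11 goblet cell markers summed to 18114 to 27410 CPM in young and 15284 to 16989 CPM in aged mice, with 2 lower (Klk1 and Tff3) and 9 not called. All 11 had a log2 fold change below 0, and 8 were lower at an unadjusted p below 0.05. The 12 enterocyte markers overlapped, at 4824 to 6633 and 3674 to 5507 CPM, with none called (at an unadjusted p below 0.05, 1 was higher and 2 lower). In bulk RNA, fewer cells of a type and less RNA per cell cannot be told apart. The part of cell makeup in the values of the Reg genes was not tested. Pancreatic acinar tissue also makes Reg proteins, and 6 of 12 acinar markers (Prss1, Prss2, Cela2a, Cpa1, Cpb1 and Amy2a5) had 0 counts in all 6 libraries, which allows up to 3 counts or 0.0507 to 0.0720 CPM in a library. The acinar list summed to 7.85 to 9.70 CPM in young and 13.2 to 15.4 CPM in aged mice, nearly all of it Cela1 and Ctrl, with none of its 3 tested members called and 1, Cela1, higher at an unadjusted p below 0.05. Leukocytes should be removed by the CD45 gate. Their 12 markers summed to 16.3 to 18.6 CPM in young and 25.1 to 27.5 CPM in aged mice. Of 6 tested, 1 rose (Itgam), 4 had a log2 fold change above 0 and 2 below 0 (Lyz2 and Ptprc). Lyz2 held 2.30 to 4.03 CPM in young and 1.96 to 2.19 CPM in aged mice. Lyz1, a Paneth marker close to it on chromosome 10, held 3316 to 5902 and 2756 to 2964 CPM. The part of Lyz1 in the Lyz2 values was not tested. Ptprc had a log2 fold change of -0.06. The part of acinar cells or leukocytes in the Reg values was not tested.

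Position along the gut was checked with 8 proximal and 9 distal markers, because Reg genes are not expressed evenly along the intestine. The proximal markers summed to 977 to 1075 CPM in young and 925 to 1014 CPM in aged mice, with 1 of 8 called lower (Gip) and 3 lower and 0 higher at an unadjusted p below 0.05. The distal markers summed to 156 to 201 and 115 to 161 CPM, with none of 8 tested called and 2 lower at an unadjusted p below 0.05. The shares over all genes tested were 3.9% higher and 5.33% lower at that threshold. Gip is also on the list of 10 enteroendocrine markers, of which 3 were called lower, 0 higher and 7 not called. At an unadjusted p below 0.05, 5 of that list were lower and 1 higher. It summed to 2253 to 2956 CPM in young and 2510 to 2811 CPM in aged mice. The part of the segment sampled in the Reg values was not tested. The list of Brunner's gland and gastric surface markers summed to 41.3 to 64.7 CPM in young and 24.4 to 48.5 CPM in aged mice, almost wholly Gkn3, which was not called (edgeR adjusted p = 0.498).

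Retnlb (ENSMUSG00000022650, chromosome 16, 48816856 to 48818892, forward strand), a bactericidal and worm-directed product of goblet cells, was near the limit of detection in 5 of 6 libraries. It held 14, 8 and 17 counts in young mice and 19, 277 and 8 counts in aged mice. Aged replicate 2 stood at 6.08 CPM (exact Poisson 95% interval 5.38 to 6.83), and the other 5 libraries between 0.135 and 0.408 CPM. This was the library with the most Reg3b and Reg3g. The Retnlb log2 fold change of 2.96 ± 1.45 (SE, edgeR adjusted p = 0.656) rested on that mouse, and it was -0.069 without it. The other resistin-like genes Retnla and Retnlg had 0 counts in all 6 libraries.

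Pglyrp1 (ENSMUSG00000030413, chromosome 7, 18871331 to 18890459, forward strand) binds bacterial peptidoglycan. It stood at 138, 128 and 175 CPM in young and at 192, 182 and 132 CPM in aged mice. Aged replicates 1 and 2 were again the highest of all 6, and aged replicate 3 lay within the young range. For Pglyrp1 the log2 fold change was 0.20 ± 0.16 (SE, 95% interval -0.17 to 0.56, edgeR adjusted p = 0.826). It lay between 0.097 (aged replicate 1 left out) and 0.34 (aged replicate 3) when 1 library was dropped. Of its family, Pglyrp3 and Pglyrp4 had 0 counts in all libraries.

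Pla2g2a encodes a secreted phospholipase of Paneth cells that attacks bacterial membranes. C57BL/6 mice are known to carry a frameshift that destroys the enzyme, and the annotation used here lists the gene as a polymorphic pseudogene, so its RNA need not stand for protein. It held 31.9, 17.2 and 55.4 CPM in young and 20.0, 27.0 and 20.4 CPM in aged mice. The young libraries spread so widely that they enclosed all 3 aged ones. Its log2 fold change was -0.63 ± 0.41 (SE, 95% interval -1.62 to 0.36, edgeR adjusted p = 0.788), and -0.12 without young replicate 3. The summed Paneth markers took the same order in the young mice, with 11240, 8724 and 16062 CPM. They took another order in the aged mice, with 7068, 6996 and 6503 CPM. Their part in the spread was not tested. Pla2g2a (ENSMUSG00000058908, chromosome 4, 138831857 to 138835186, forward strand) lies inside Pla2g5, a phospholipase gene on the opposite strand, with which it shares no exon bases. Pla2g5, given here for its position, held 17.8, 9.28 and 25 CPM in young and 45.3, 69.5 and 32.5 CPM in aged mice (log2 fold change 1.5 ± 0.42, SE, edgeR adjusted p = 0.258).

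Dmbt1 is a large scavenger receptor cysteine-rich glycoprotein that is secreted into mucus and aggregates bacteria. Its coefficient of variation in young mice, 4.02%, was the lowest of the 10 genes, with 8659, 8437 and 7998 CPM in young and 8547, 10835 and 9134 CPM in aged mice. The groups overlapped through aged replicate 1. For Dmbt1 the log2 fold change was 0.18 ± 0.11 (SE, edgeR adjusted p = 0.708), and its 95% interval of -0.05 to 0.42 corresponds to 0.963 to 1.34 times the young level. Dropping aged replicate 2, the highest library, brought it to 0.075. Dmbt1 (ENSMUSG00000047517, chromosome 7, 131032053 to 131121630, forward strand) lies within the span of Fgfr2 on the opposite strand and shares no exon bases with it.

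Pigr (ENSMUSG00000026417, chromosome 1, 130826684 to 130852249, forward strand), the IgA carrier, held 9389, 7326 and 9233 CPM in young and 8879, 7890 and 9484 CPM in aged mice, and the groups overlapped throughout. Its log2 fold change of 0.02 ± 0.12 (SE, edgeR adjusted p = 0.987) had a 95% interval of -0.25 to 0.29, or 0.839 to 1.22 times the young level. Its sign turned without young replicate 2 (-0.10) or without aged replicate 3 (-0.05). Of the other genes of IgA secretion, 6 of 10 were tested and none passed in either direction in edgeR, DESeq2 or limma-voom, nor at an unadjusted p below 0.05 (0 higher and 0 lower in edgeR), with a median log2 fold change of -0.0004. That median was -0.061 in DESeq2, -0.059 without a filter and 0.077 with aged replicate 3 left out. The most abundant were the chemokine genes Ccl25 (354 to 467 CPM in young and 270 to 409 CPM in aged mice) and Ccl28, which attracts IgA plasma cells (89.6 to 114 and 97.5 to 113 CPM). The plasma cell genes Jchain and Igha lay at or below 0.211 CPM in every library.

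Other antimicrobial products of the gut epithelium were read from a list of 35 genes, of which 19 were tested. In edgeR none was higher, 2 were lower and 17 did not pass. At an unadjusted p below 0.05, 4 were higher and 6 lower, beside 3.9% and 5.33% of all genes tested. DESeq2 called 1 higher and 6 lower, and limma-voom 0 higher and 1 lower. The median log2 fold change was -0.14, and its sign turned in DESeq2 (0.23) and without a filter (0.23), where more low genes entered. Pla2g10, another secreted phospholipase, fell from 4.50, 6.81 and 5.86 CPM in young to 2.37, 2.54 and 2.30 CPM in aged mice. Its log2 fold change was -1.25 ± 0.19 (SE, edgeR adjusted p = 0.0144). It no longer passed when young replicate 3, or either of aged replicates 1 and 2, was left out (adjusted p up to 0.0878). Wfdc2, a whey acidic protein family protease inhibitor, fell from 3.87, 3.18 and 5.02 CPM to 1.31, 1.05 and 2.03 CPM (log2 fold change -1.44 ± 0.28, SE, edgeR adjusted p = 0.0467). Wfdc2 missed the threshold in limma-voom (adjusted p = 0.0566), with a filter of 1 CPM (0.0624), and when any library other than young replicate 2 and aged replicate 3 was left out (up to 0.223).

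Genes of the signals that act on Reg3 genes gave 1 call in all. Of 16 tested genes of IL-22, IL-17 and STAT3 signalling none passed in either direction, with a median log2 fold change of 0.12 (0.19 with young replicate 3 left out). Of these genes 13 had a log2 fold change above 0 and 3 below 0, beside 7735 and 7188 of all 14923 genes tested. The most abundant were Nfkbiz, an inducible cofactor of NF-kB (166 to 197 CPM in young and 151 to 268 CPM in aged mice), and the kinase gene Jak1 (150 to 170 and 163 to 179 CPM). Socs3, chosen after its values were seen, held 34.2 to 52.2 CPM in young and 55.6 to 65.8 CPM in aged mice. Its log2 fold change was 0.57 ± 0.15 (SE, edgeR adjusted p = 0.138). Of 16 tested genes of Toll-like receptor and NOD signalling 1 rose and 15 did not pass, with a median of 0.18 (0.11 with aged replicate 1 and 0.10 with aged replicate 2 left out). This was Tlr1, the partner of Tlr2 in sensing bacterial lipopeptides, which rose from 7.03, 7.42 and 5.93 CPM to 19.7, 24.3 and 16.1 CPM. Its log2 fold change was 1.55 ± 0.17 (SE, edgeR adjusted p = 0.00467), and it was called in all 6 fits without 1 library. In this list 14 genes had a log2 fold change above 0 and 2 below 0. The groups did not overlap in 5 that were higher and 0 that were lower, beside 6.3% and 7.49% of all genes tested. Myd88 and Stat3, chosen after their values were seen, were not called. Their log2 fold changes were 0.19 ± 0.07 and 0.35 ± 0.12 (SE, edgeR adjusted p = 0.376 and 0.316). Of 5 tested genes of IL-4 and IL-13 signalling, which act on Retnlb, none passed in either direction. Stat6 lay between 205 and 255 CPM in young and 223 and 244 CPM in aged mice, and the receptor gene Il4ra between 52.2 and 61.6 and between 58.9 and 78.5 CPM. Over all genes tested, 3.9% were higher and 5.33% lower at an unadjusted p below 0.05. At that threshold 3 genes were higher and 1 lower in the first of these lists, 4 and 0 in the second, and 2 and 0 in the third. DESeq2 called 1, 2 and 1 genes higher and limma-voom 0, 1 and 0.

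The pattern of Reg3b and Reg3g over the libraries was compared with that of 9953 named genes whose mean level reached 5 CPM. The standardised log2 CPM of both genes was averaged, and other genes were ranked by Pearson correlation with that mean over the 6 libraries. The 3 most similar were H2-T22, a class Ib major histocompatibility gene (r = 0.995), Cby1, which encodes an inhibitor of beta-catenin (r = 0.990), and the zinc finger gene Zfp942 (r = 0.989). Their differences were far smaller. H2-T22 held 22.4 to 23.5 CPM in young and 27.4, 29.9 and 22.7 CPM in aged mice, and none of the 3 was called. As many as 131 genes had an r above 0.9. All points come from the same 6 libraries, and the values describe these mice only.

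**Figure D4:**
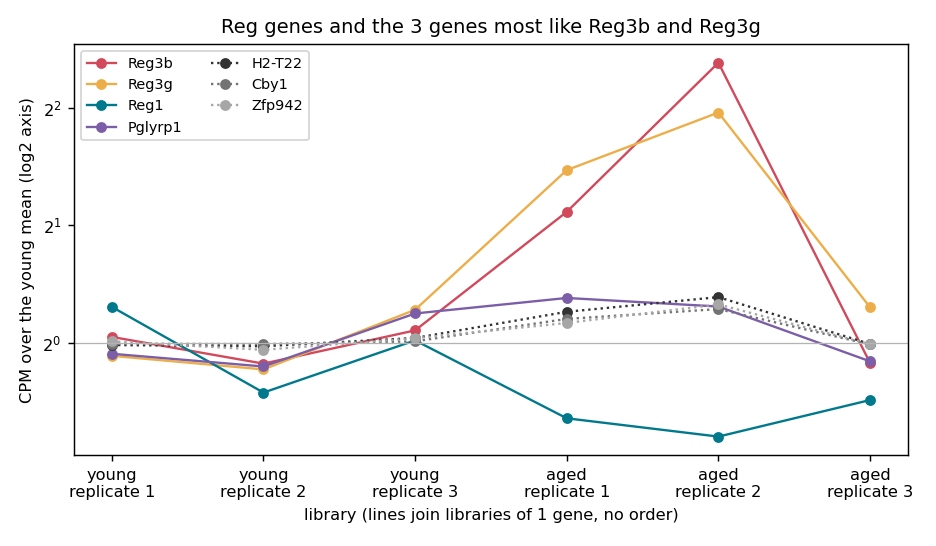
CPM of Reg3b, Reg3g, Reg1, Pglyrp1 and the 3 genes most similar to Reg3b and Reg3g in each library, divided by the mean of the 3 young libraries, on a log2 axis. Aged replicates 1 and 2 are high and aged replicate 3 is near the young level in Reg3b, Reg3g and the dotted similar genes, and Reg1 is below its young mean in all 3 aged mice.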

How the data were processed

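Libraries were made from poly(A) RNA with a stranded kit and 15 cycles of PCR, per the labels' protocols. The deposited values are raw counts per gene, not normalised by the authors, as seen from their whole numbers and unequal totals. GRCm38, STAR, HISAT2 2.1.0, featureCounts 1.6.4 and DESeq2 1.28.1 are among the tools in the submitters' processing notes, without role or order. Which annotation release and strand setting were used is not given in these sources. Gene positions and merged exon lengths come from GENCODE M21 on GRCm38.

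Genes were kept with filterByExpr (minimum count 10) and scaled with TMM factors. Aged and young were compared with edgeR 4.0.16 (glmQLFit with robust estimation, glmQLFTest) over all 14923 genes, with Benjamini-Hochberg adjustment and a threshold of 0.05, in R 4.3.3. The model had age as its only term, since no batch is labelled. The SE is the log2 fold change over the square root of F, and 95% intervals use the total (prior and residual) degrees of freedom of the fit. Counts of 0 and Poisson intervals cover counting error only, since PCR copies are not independent molecules. Alternatives were DESeq2 1.42.0, limma-voom 3.58.1, other scaling and filters, no robust estimation, and fits that dropped 1 library at a time. All tests were first run on simulated counts with known changes. Motif and alignment work used Biopython 1.88.

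The members, lists and tests were chosen with earlier results of these data known. Named were all 10 members, up to 4 called genes of each list or else its 2 most abundant, and the 3 genes most similar to Reg3b and Reg3g. Genes named outside this rule are given for their position or family, or were chosen after their values were seen.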

Additional observations from a re-analysis of the deposited data

How the results depend on the processing

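None of the 10 members passed the threshold in limma-voom, with RLE or upper quartile factors, with total counts only, without a filter, with a filter of 1 CPM (which left out Retnlb and Reg3d) or without robust estimation. DESeq2 called 1 lower (Reg1). Leaving out 1 library gave 0 to 1 members higher (Reg3g, without aged replicate 3) and 0 to 1 lower (Reg1, without young replicate 2). The direction of 8 members was kept in every alternative. Pigr turned to -0.10 with young replicate 2 left out and to -0.05 with aged replicate 3 left out, and Retnlb to -0.069 without aged replicate 2. Over the fits without 1 library Pigr ranged from -0.10 to 0.081 and Retnlb from -0.069 to 3.53. Among genes named from the lists, Ccl28 turned to -0.043 (young replicate 2 left out) and -0.02 (aged replicate 2) in a range up to 0.13, and Stat6 to -0.026 (young replicate 3) and -0.0019 (aged replicate 3) in a range up to 0.13. The cause was not tested.

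Over all genes, DESeq2 called 205 higher and 286 lower, no filter gave 168 and 245, and the filter of 1 CPM gave 67 lower. Without 1 library, 35 (without aged replicate 2) to 135 (without aged replicate 3) were higher and 30 (without aged replicate 1) to 135 (without aged replicate 3) lower. Of the other antimicrobial genes, DESeq2 called 1 higher (Duoxa2) and 6 lower (Itln1, Lyz1, Pla2g10, Pla2g2f, Wfdc2 and Zg16), limma-voom and the filter of 1 CPM 1 lower each (Pla2g10), and no filter 1 higher (Ltf). Without 1 library 0 to 2 were higher (Lcn2 and Ltf, without aged replicate 3) and 0 to 5 lower (Itln1, Lyz1, Pla2g10, Wfdc2 and Zg16, without young replicate 2). Of the IL-22, IL-17 and STAT3 genes DESeq2 called 1 higher (Socs3). Without 1 library 0 to 1 were higher (Socs3, without young replicate 3) and 0 to 1 lower (Lifr, without young replicate 2). Of the Toll-like receptor and NOD genes DESeq2 and no filter gave 2 higher each (Nod1 and Tlr1), and the fits without 1 library 1 to 2 (2 without aged replicate 3). Of the IL-4 and IL-13 genes DESeq2 and no filter gave 1 higher each (Alox15), and the fits without 1 library 0 to 1 (without aged replicate 3).

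No paired analysis was possible because the labels give no replicate numbers. Groups of 3 were not searched for outlying mice.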

Other observations

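Several other defence genes of the epithelium, chosen after their values were seen, had their highest levels in aged replicates 1 and 2, as Reg3b and Reg3g did. Duox2, the oxidase that releases hydrogen peroxide at the surface, stood at 39.1, 19.4 and 44.5 CPM in young and at 87.6, 101 and 43.0 CPM in aged mice. Its maturation factor Duoxa2 held 4.69, 2.76 and 5.47 CPM in young and 9.76, 11 and 5.36 CPM in aged mice. Nos2, the inducible nitric oxide synthase, held 26.5, 12.7 and 32.1 CPM in young and 74.0, 50.7 and 21.9 CPM in aged mice. Lcn2, which binds bacterial siderophores, held 1.48, 1.12 and 1.73 CPM in young and 3.21, 4.93 and 1.03 CPM in aged mice. In all 4 genes aged replicate 3 lay within or below the young range, which follows in part from the choice. None of the 4 passed the test over all genes (edgeR adjusted p = 0.456, 0.254, 0.682 and 0.578). DESeq2 called Duoxa2 higher, and edgeR called Lcn2 higher with aged replicate 3 left out.

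Among the 19 tested other antimicrobial genes, the groups did not overlap in 8 that were lower and 2 that were higher. Over all genes tested these shares were 7.49% and 6.3%. Of the list's Paneth and goblet cell products, 3 picked by value were lower in every aged mouse than in any young one, like Reg1. Ang4, a Paneth cell ribonuclease on that list, did not follow them, with 252, 152 and 323 CPM in young and 158, 266 and 138 CPM in aged mice. Lyz1, lysozyme, lay between 3316 and 5902 CPM in young and between 2756 and 2964 CPM in aged mice. The lectin gene Itln1 lay between 1672 and 3085 CPM in young and between 1193 and 1306 CPM in aged mice, and Zg16, a mucus lectin that binds Gram-positive bacteria, between 2170 and 3908 and between 1492 and 1663 CPM. None of the 3 passed the test in edgeR (adjusted p = 0.154, 0.0812 and 0.182). All 3 were called lower in DESeq2 and in edgeR with young replicate 2 left out.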
